A study of Arabidopsis thaliana with 24 samples.

Results

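CSD2 (AT2G28190) encodes the copper/zinc superoxide dismutase of the chloroplast, and its transcript was unusually low in 4 of the 12 arrays of the Arabidopsis thaliana accession Tsu-1. These arrays, 2 from dry soil (dry 3 and dry 6) and 2 from wet soil (wet 11 and wet 12), are described here against the other 8 Tsu-1 arrays. They were chosen by their own values: an array is a low array where the deposited log2 value of CSD2 falls under a threshold set in the gap between 11.36 and 11.86. The series holds 24 arrays of rosette leaves, 6 for each pairing of an accession, Tsu-1 or Kas-1, with dry or wet soil. All plants were raised one to a pot in a ceramic rooting medium, on a short day, with regular nutrient solution. Dry pots were brought down stepwise to about 50% of the water they can hold by day 5, and wet pots stayed near 90%. The labels name no transgene and no other treatment for any group.

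Copper/zinc superoxide dismutases turn superoxide into hydrogen peroxide, and they receive their copper from the chaperone CCS. In Arabidopsis the transcripts of CSD1, CSD2 and CCS are targets of the microRNA miR398, which accumulates when copper is scarce and when the transcription factor SPL7 is active. Leaves then rely more on the iron enzyme FSD1. Zinc is handled by another set of proteins: ZIP transporters bring it into cells, nicotianamine made by the NAS enzymes binds it, and HMA2 pumps it out of cells. The microRNA, metals and enzyme activities were not measured on these arrays.

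CSD2 read 10.02 in dry 3, 10.66 in dry 6, 11.36 in wet 11 and 10.43 in wet 12. In the other Tsu-1 arrays it ran from 11.86 to 12.59 with a median of 12.22. All 12 Kas-1 arrays lay above the threshold, between 11.92 and 12.89. The Tsu-1 arrays nearest the threshold were wet 11 at 11.36 on the low side and dry 5 at 11.86 on the other side. As these values made the split, CSD2 itself was left out of every test.

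**Figure D1:**
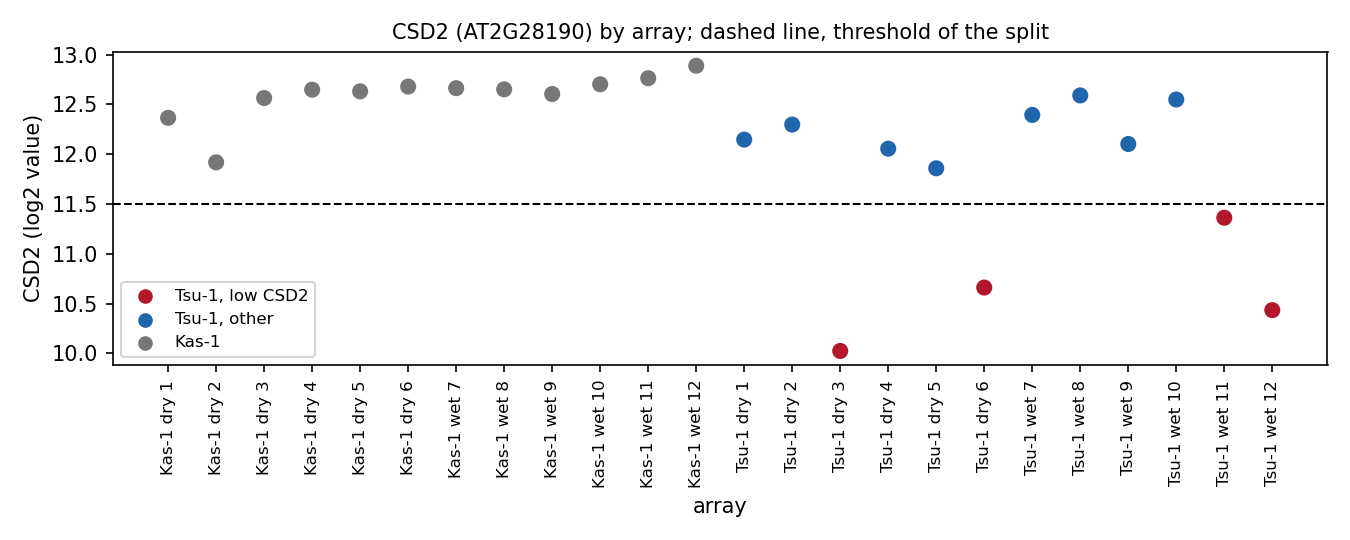
Log2 value of CSD2 (vertical axis) in each of the 24 arrays (horizontal axis), with low Tsu-1 arrays in red, other Tsu-1 arrays in blue and Kas-1 in grey. The dashed line is the threshold, and only dry 3, dry 6, wet 11 and wet 12 of Tsu-1 lie under it.

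In general measures the low arrays were close to the rest. Their medians lay between 6.79 and 6.82, beside those of the other Tsu-1 arrays at 6.79 to 6.83. The leaf label was checked with RCA (rubisco activase of leaf mesophyll), at 13.5 to 13.6 in the low and 13.4 to 13.6 in the other arrays, while the mean of 4 flower markers stayed between 4.43 and 4.73. On the main axis of variation within groups, which holds 46.9% of that variance, the low arrays scored between -9.74 and 6.15 and the other arrays between -34.5 and 38.5. The series' design text names 3 biological replicates although each group has 6 arrays, so some arrays may share plants or RNA, and p-values measure the spread between arrays. Dry 3 and dry 6 correlated with r = 0.976 over the tested loci, below dry 1 and dry 5 as the closest dry pair (0.985). Each was closer to an array outside the low group: dry 6 to dry 1 (0.981) and dry 5 (0.979), and dry 3 to dry 2 (0.980). Wet 11 and wet 12 correlated with r = 0.979, near wet 8 and wet 10 (0.983) and wet 7 and wet 9 (0.981). All remaining wet pairs were at 0.963 or less, so each wet array had 1 close partner. Whether such partners share plants or RNA was not tested, and p-values would then rest on fewer independent arrays.

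Few loci passed the test of the split. Of 12307 loci tested with limma, with soil as a block and Benjamini-Hochberg adjustment, 3 passed an adjusted p of 0.05, which is 0.0244% of those tested. HMA2 was among these 3, but it was known to be high in these arrays when they were picked, as was NAS3. Its passing is therefore no result. Without both loci 2 calls were left, CYP79B3 higher in the low arrays and CSD1 lower. With HMA2 counted, 0.0163% of the tested loci were called higher and 0.00813% lower. At an unadjusted p under 0.05 there were 918 loci (7.46%), with 316 higher (2.57%) and 602 lower (4.89%), where 615.4 would be expected with no difference at any locus. The estimate was above 0 at 42.6% of the tested loci. A slope on CSD2 over the 12 Tsu-1 arrays, in place of the split, called 6 loci (0.0488%). The 4 low arrays lay all above the other 8 at 46 loci (0.374%) and all below them at 99 (0.804%), 145 in all (1.18%). The median difference over all tested loci was -0.03 on the log2 scale, and the median of its size was 0.10. Leaving out 1 array at a time, with HMA2 and NAS3 kept in, moved the number of calls between 0 and 6. It fell to 0 without dry 2, dry 4, dry 5, dry 6, wet 7, wet 10 or wet 12, and rose to 6 without wet 11, so single calls are to be read with the values by array.

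The superoxide dismutase genes were led by the partners of CSD2. CSD1 (AT1G08830), the cytosolic copper/zinc enzyme, read 11.003 in dry 3, 11.14 in dry 6, 11.51 in wet 11 and 10.69 in wet 12. The other Tsu-1 arrays ran from 12.06 to 12.91 with a median of 12.33, so the groups did not overlap. CSD1 was 2.53-fold lower in the low arrays, a log2 difference of -1.34 (SE 0.19, n = 4 and 8, limma adjusted p = 0.0458). It passed in 2 of the 12 fits that left out 1 array, with a difference between -1.47 and -1.16 in all of them.

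CCS (AT1G12520), the copper chaperone of both enzymes, read 9.21 in dry 3, 9.24 in dry 6, 10.22 in wet 11 and 9.43 in wet 12. Its range in the other Tsu-1 arrays was 10.29 to 10.91 with a median of 10.66. Wet 11 came just under the lowest of them, dry 5. The log2 difference was -1.13 (SE 0.17, limma adjusted p = 0.0737), which missed the threshold. Both CSD1 and CCS were lower in all 4 low arrays than in any of the remaining 20 arrays, Kas-1 included.

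No iron or manganese enzyme passed the test. FSD1 (AT4G25100), the chloroplast iron enzyme, read 5.76 in dry 3, 10.29 in dry 6, 5.07 in wet 11 and 5.64 in wet 12. The other Tsu-1 arrays covered 4.21 to 10.65, so the groups overlapped over nearly the whole range. Its log2 difference was -0.77 (SE 0.91, limma adjusted p = 0.946), and without dry 3 it became 0.12. The mitochondrial manganese enzyme MSD1, the peroxisomal CSD3 and the iron enzymes FSD2 and FSD3 differed by -0.34 to -0.03, and none passed. Of the 7 tested genes of this list, 1 was called lower (0.00813% of all tested loci were), 2 were lower at an unadjusted p under 0.05 (4.89% of all), none had a positive estimate (42.6% of all), and the median difference was -0.34.

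Genes of copper uptake and delivery had small differences. Of 19 tested members none was called, 2 were lower and none was higher at an unadjusted p under 0.05 (4.89% and 2.57% of all tested loci). A positive estimate was found for 10 (42.6% of all), and the median was 0.02. The copper-responsive uptake transporter gene COPT2 read 7.19 to 7.29 in the low and 7.03 to 7.41 in the other arrays, a difference of 0.02. The copper chaperone gene CCH differed by -0.01, the transporter gene ZIP2 by 0.00 and YSL2, a metal-nicotianamine transporter, by 0.06. FRO3, a metal reductase of the mitochondrion, differed by 0.66 (SE 0.51, limma adjusted p = 0.873) with overlapping groups.

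SPL7 (AT5G18830), the regulator of the copper response, was the lowest member of that list. It read 6.37 in dry 3, 5.62 in dry 6, 6.36 in wet 11 and 6.42 in wet 12, against 6.48 to 6.87 in the other Tsu-1 arrays. The groups did not overlap, but the difference of -0.53 (SE 0.13) had a limma adjusted p of 0.281, and Kas-1 arrays read as low as 6.21. AT3G15640, the other member with all 4 low arrays below the rest, differed by -0.28 (SE 0.08, limma adjusted p = 0.396). Its 4 low values, 10.40 to 10.64, were also below the remaining 20 arrays.

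**Figure D2:**
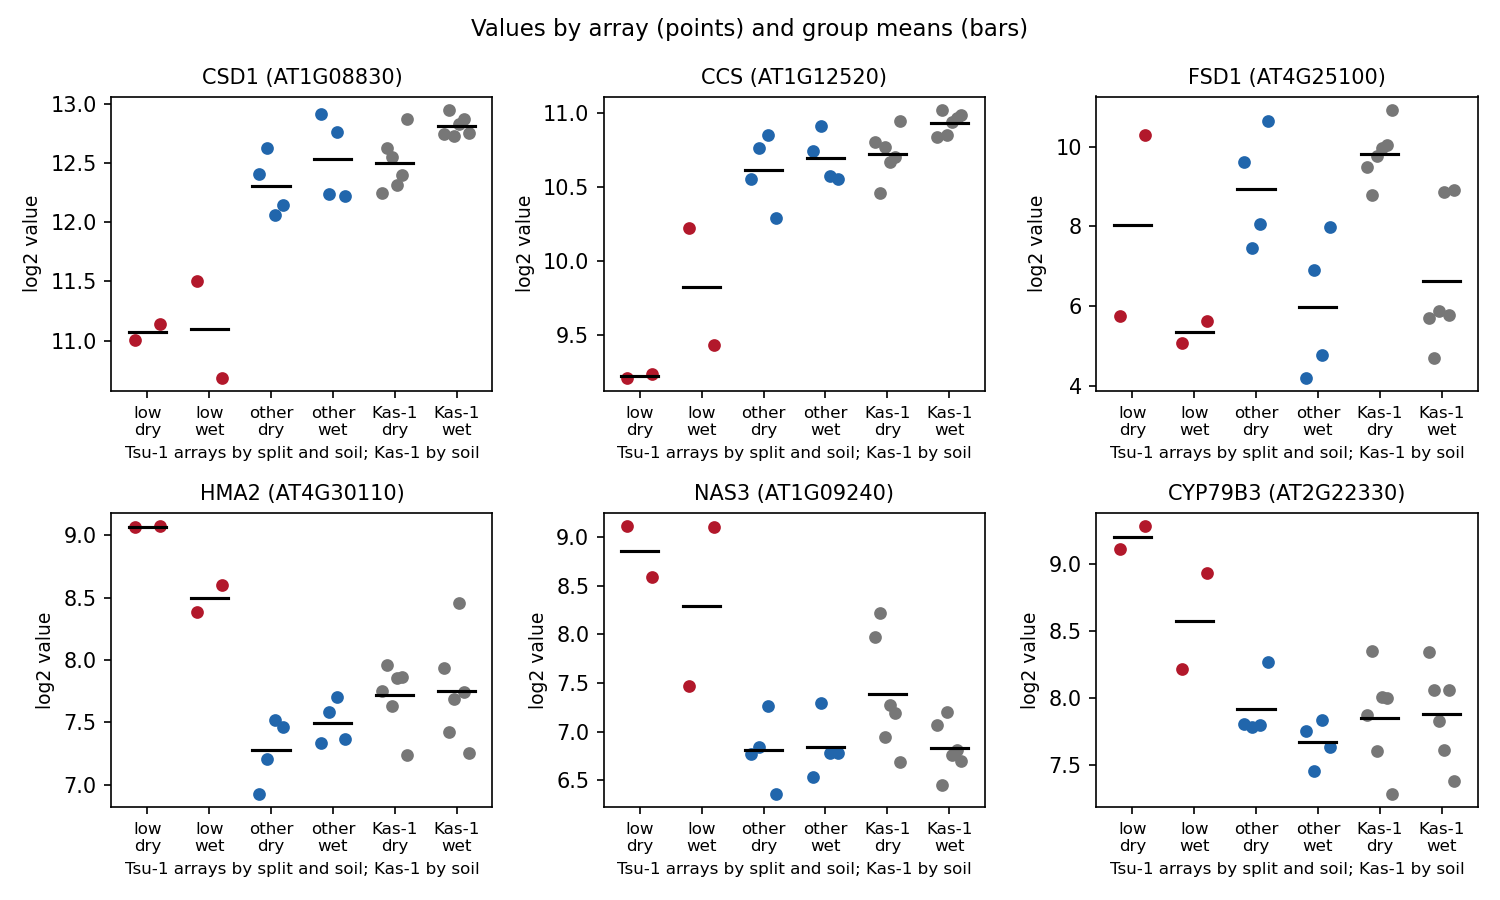
Log2 values (vertical axes) of 6 loci by array, in low and other Tsu-1 arrays and in Kas-1 by soil (horizontal axes), with points for arrays and bars for group means. CSD1 and CCS are lowest in the 4 low arrays, HMA2 and NAS3 lie above the other Tsu-1 arrays, CYP79B3 overlaps them at wet 11, and FSD1 shows no separation.

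Zinc and nicotianamine genes held the largest positive differences among the dismutase, copper and zinc lists. HMA2 (AT4G30110) and NAS3 (AT1G09240) were part of what drew attention to these arrays, so their values are a description. No p-value is given for them. HMA2 stands among the 3 calls above, and nothing is drawn from that or from their place in any other count. HMA2 read 9.07 in dry 3, 9.07 in dry 6, 8.39 in wet 11 and 8.60 in wet 12, and 6.93 to 7.70 (median 7.42) in the other Tsu-1 arrays. That is 2.63-fold, or 1.39 on the log2 scale, and one Kas-1 array at 8.46 reached above wet 11. NAS3, a nicotianamine synthase, read 9.12, 8.60, 7.47 and 9.11 in the same order of arrays against 6.36 to 7.29 (median 6.78). Its difference was 1.75, or 3.36-fold, and wet 11 lay just above the highest of the others.

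The other nicotianamine synthases had positive differences too. NAS4 (AT1G56430) read 8.82 in dry 3, 8.73 in dry 6, 9.40 in wet 11 and 9.99 in wet 12, against 8.10 to 8.66 in the other Tsu-1 arrays. These groups did not overlap, and the difference of 0.83 (SE 0.17) had a limma adjusted p of 0.270. NAS2 read 6.86, 5.83, 5.75 and 7.52 against 5.47 to 5.65, and NAS1 4.76 to 5.05 against 4.48 to 4.76. Both were too dim to pass the intensity filter and were not tested. Whether the probes of these related genes also bind each other's transcripts was not tested.

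Among the zinc uptake transporters ZIP5, ZIP4 and IRT3 had the largest differences, and none of them passed the test. ZIP5 (AT1G05300) read 10.42 in dry 3, 9.71 in dry 6, 9.81 in wet 11 and 10.66 in wet 12, against 8.88 to 10.19 in the other Tsu-1 arrays. ZIP4 (AT1G10970) read 9.48, 8.64, 9.25 and 10.82 against 8.01 to 9.72. IRT3 (AT1G60960) read 9.98, 9.29, 9.91 and 10.83 against 8.72 to 9.95. In all 3 genes the groups overlapped at dry 4, which read 12.06 for CSD2 and had the highest value of the other arrays. In ZIP4 and IRT3 wet 10 overlapped too, at 8.93 and 9.87, both above dry 6. The log2 differences were 0.84 for ZIP5 (SE 0.25), 1.04 for ZIP4 (SE 0.39) and 0.85 for IRT3 (SE 0.31), with limma adjusted p from 0.410 to 0.548. ZIP1 differed by 0.24, ZIP11 by 0.13 and ZIP6 by 0.03.

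The zinc list had 18 tested members, 16 of them besides HMA2 and NAS3. None of these 16 was called. At an unadjusted p under 0.05, 4 were higher (ZIP4, IRT3, ZIP5 and NAS4) and none lower, where 2.57% of all tested loci were higher. Their median difference was 0.14 and 11 were positive, against 42.6% of all tested loci. Of the 16, NAS4 had all 4 low arrays above the other 8, as did 0.374% of all tested loci. The remaining tested members differed by -0.18 to 0.24, among them the zinc pump gene HMA4 at -0.02, the vacuolar zinc transporter gene MTP1 at 0.04 and the transcription factor gene BZIP19 at -0.08. The 5 metallothionein genes, whose proteins bind copper and zinc, had a median of -0.01, with none called and none past an unadjusted p of 0.05 in either direction.

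**Figure D3:**
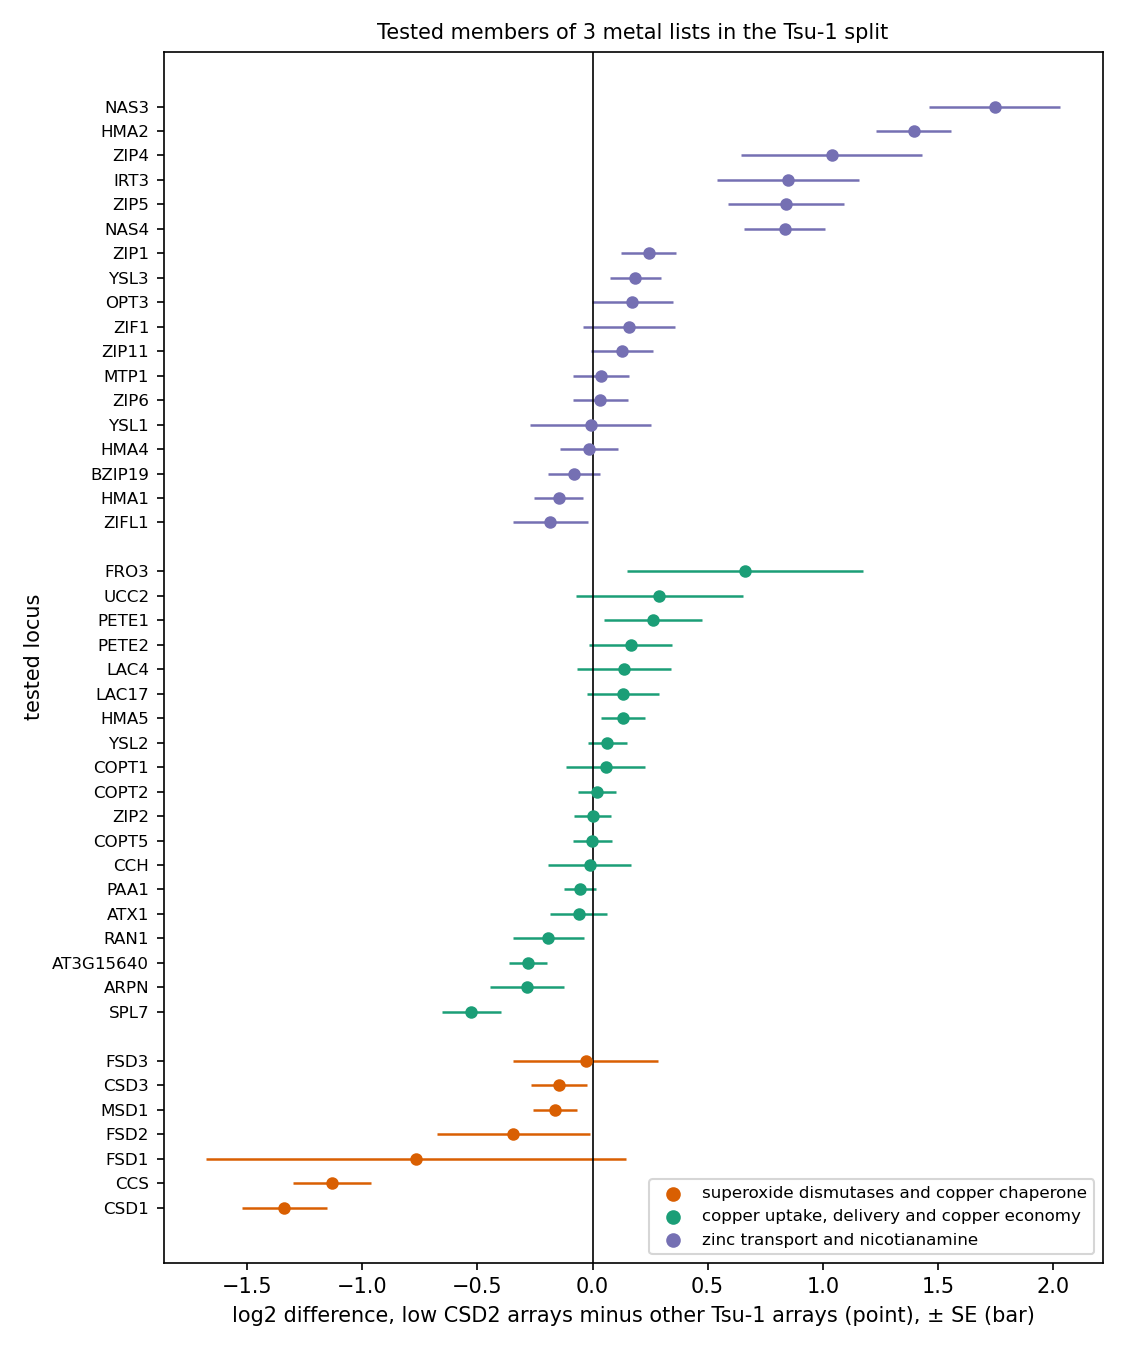
Log2 difference between low and other Tsu-1 arrays (horizontal axis, point with SE as bar) for each tested member of the dismutase, copper and zinc lists (vertical axis). CSD1 and CCS stand at the low end, NAS3, HMA2, ZIP4, IRT3, ZIP5 and NAS4 at the high end, and most copper genes lie near 0. HMA2 and NAS3 are shown as description only.

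Of 16 tested iron genes none was called, 1 was higher at an unadjusted p under 0.05 (2.57% of all tested loci), and the median was 0.03. That member, AT1G47400, read 7.52 in dry 3, 6.97 in dry 6, 10.35 in wet 11 and 10.24 in wet 12, against 5.34 to 9.16. Its groups overlapped, and the difference of 1.33 (SE 0.56) had a limma adjusted p of 0.611.

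No gene of sulfate uptake and assimilation passed the test. Of 23 tested members none was called (0.0244% of all tested loci were), 11 were positive (42.6% of all), and the median was -0.01. At an unadjusted p under 0.05, 1 member was lower (4.89% of all tested loci were) and none higher (2.57%). That member, the sulfate transporter gene SULTR3;1, had a log2 difference of -0.44 (SE 0.16, limma adjusted p = 0.515). Its values of 8.48 to 9.17 in the low arrays overlapped 8.97 to 9.71 in the others. The 5 tested genes of the sulfur deficiency response had a median of -0.12 and none called or past an unadjusted p of 0.05. LSU2, one of the genes induced by low sulfur, differed by 0.04.

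Among sulfur-containing secondary products, the entry step of indole glucosinolates stood apart from the rest. CYP79B3 (AT2G22330), which turns tryptophan into indole-3-acetaldoxime, read 9.12 in dry 3, 9.28 in dry 6, 8.22 in wet 11 and 8.93 in wet 12. The other Tsu-1 arrays ran from 7.46 to 8.27 with a median of 7.79, and wet 11 fell below the highest of them, dry 5. CYP79B3 was 2.13-fold higher, a log2 difference of 1.09 (SE 0.15, limma adjusted p = 0.0458), and it passed in 1 of the 12 fits that left out an array. CYP79B2 (AT4G39950), which catalyses the same step, read 8.51, 8.55, 7.35 and 8.44 against 6.49 to 7.45, a difference of 1.16 (SE 0.21, limma adjusted p = 0.140). Of the 12 tested glucosinolate genes, 1 was called higher (0.0163% of all tested loci were) and none lower, 2 were higher at an unadjusted p under 0.05 (2.57% of all), and the median was -0.01. The other 10 differed by -0.33 (CYP83A1) to 0.22 (CYP83B1), with MYB51 at 0.06, UGT74B1 at -0.13 and SUR1 at -0.19. Probes shared between CYP79B2 and CYP79B3 were not tested.

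The loci ranked next by p missed the threshold. AT4G28290 read 9.07 to 9.17 in the low arrays and 7.92 to 8.69 in the others, a difference of 0.85 (SE 0.14, limma adjusted p = 0.0843). HIPL2 (AT5G62630) read 9.16 to 9.75 against 8.52 to 9.01, a difference of 0.74 (SE 0.12, limma adjusted p = 0.0843). All 4 low arrays were above the remaining 20 arrays in both. PGDH (AT1G17745), a phosphoglycerate dehydrogenase of serine synthesis, read 7.43 to 8.03 against 8.13 to 8.42, a difference of -0.64 (SE 0.11, limma adjusted p = 0.0843). AT1G75800 differed by -0.79 (SE 0.15, limma adjusted p = 0.197) and AT3G63460 by -0.37 (SE 0.07, limma adjusted p = 0.219). In these 3 loci too the low arrays all lay below the other Tsu-1 arrays.

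Cytokinin genes were looked at after their values were seen, as whole families. Type-A response regulators are induced by cytokinin and damp its signal, and cytokinin oxidases break the hormone down. ARR9 (AT3G57040) read 7.16 in dry 3, 7.25 in dry 6, 7.01 in wet 11 and 7.46 in wet 12, against 5.74 to 6.98, a difference of 1.11 (SE 0.20, limma adjusted p = 0.120). ARR5 read 7.13, 8.08, 7.03 and 7.74 against 6.05 to 6.97, a difference of 0.92 (SE 0.22, limma adjusted p = 0.281). In both the groups did not overlap, though wet 11 lay just above the highest of the others. ARR4, ARR7, ARR15 and ARR16 differed by 0.60 to 1.32 with overlapping groups, and wet 8 was the highest of the other arrays in each. In the other wet arrays all of them were lower in wet 7 and wet 9 than in wet 8 and wet 10. ARR7 read 6.31 and 6.59 in the former, 8.85 and 8.67 in the latter, and 9.60 and 9.12 in the low wet arrays. On the main axis of variation within groups wet 7 and 9 scored 34.6 and 38.5, wet 8 and 10 -34.5 and -34.2. The low wet arrays scored -1.20 and -3.25. Whether these genes follow CSD2 or that axis was not tested.

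None of the 6 tested type-A regulators was called. All 6 were higher at an unadjusted p under 0.05, against 2.57% of all tested loci, with a median difference of 0.99. The 4 others of this family were below the intensity filter and not tested. Among these, ARR6 differed by 0.38 with overlapping groups, ARR3 by 0.06, ARR17 by 0.00 and ARR8 by -0.08. Among the oxidases, CKX6 differed by 0.57 (SE 0.10, limma adjusted p = 0.0994), CKX4 by 0.73 (SE 0.16, limma adjusted p = 0.281) and CKX5 by 0.05 (SE 0.09, limma adjusted p = 0.981). CKX1, CKX2 and CKX3, below the filter and not tested, differed by -0.06 to 0.04. AHP4, a phosphotransfer protein gene of the same pathway, read 7.14, 6.43, 4.58 and 5.04 against 5.08 to 9.46. Its difference within soils was -1.69 (SE 0.38, limma adjusted p = 0.281), and the ranges overlapped across soils because it was higher in dry soil. Of the 6 tested cytokinin receptor and phosphotransfer genes none was called, and the median was -0.17. At an unadjusted p under 0.05, 2 were higher (AHP2 at 0.25 and AHP3 at 0.33) and 2 lower (AHP4 and AHK3, the latter at -0.30). Of all tested loci 2.57% were higher and 4.89% lower.

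**Figure D4:**
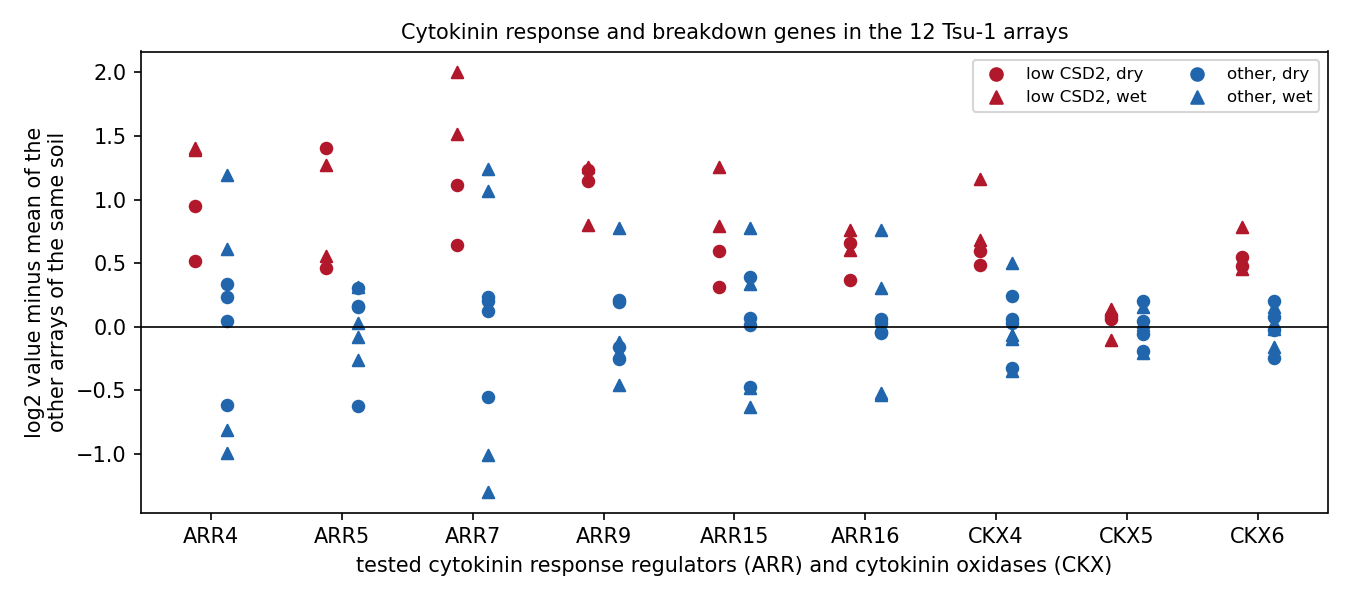
Log2 value minus the mean of the other Tsu-1 arrays of the same soil (vertical axis) for tested type-A response regulators and cytokinin oxidases (horizontal axis). Red points are the 4 low arrays, blue points the other 8, circles dry and triangles wet soil. The red points lie above 0 in all loci but CKX5, with overlap by the highest blue points in several.

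A few further loci were picked for their size after their values were seen. ATBFRUCT1 (AT3G13790), a cell wall invertase that splits sucrose, read 8.61 in dry 3, 8.57 in dry 6, 8.64 in wet 11 and 9.35 in wet 12, against 6.54 to 8.53 (difference 1.45, SE 0.24, limma adjusted p = 0.0843). Kas-1 arrays covered 7.22 to 9.18 and so spanned most low-array values. AT2G30540 read 8.88 to 9.30 against 6.57 to 8.12 (difference 1.49, SE 0.25, limma adjusted p = 0.0843), and all 4 low arrays exceeded the remaining 20. The nitrate reductase genes NIA1 and NIA2 differed by 0.90 and 1.08 with overlapping groups (limma adjusted p = 0.503 and 0.479). Of the 5 nitrate genes tested none was called, 3 were higher at an unadjusted p under 0.05 (2.57% of all tested loci were) and the median was 0.54.

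Of 11 tested drought and abscisic acid genes none was called, 2 were lower at an unadjusted p under 0.05 (4.89% of all tested loci), 2 were positive (42.6% of all), and the median was -0.20. Those 2 were the lipid transfer protein genes LTP3, at -1.35 (SE 0.31, limma adjusted p = 0.281), and LTP4, at -0.96 (SE 0.41, limma adjusted p = 0.627). LTP3 overlapped across soils only: it read 9.78 and 9.96 in the low dry arrays against 11.02 or more in the other dry ones, and 8.75 and 9.03 in the low wet arrays against 9.29 or more in the other wet ones. The 15 touch, wounding and jasmonate genes had a median of 0.06 and none past an unadjusted p of 0.05. Lists of phosphate starvation, the clock, senescence and redox enzymes had no call either, with medians between -0.16 and 0.00.

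Markers of other leaf cells were read beside these results. The mean of 5 guard cell and stomatal markers was 6.59 to 6.93 in the low arrays and 6.00 to 6.78 in the other Tsu-1 arrays. Of the 2 that could be tested, AT1G22690 differed by 0.73 (SE 0.20, limma adjusted p = 0.362) and FAMA, a regulator of the last step of guard cell formation, by -0.03. Of the 3 below the intensity filter, KAT1, a guard cell potassium channel gene, read 5.99, 5.99, 6.98 and 5.98 against 4.89 to 6.07. MYB60 differed by 0.20 and SPCH, which acts at the entry to the stomatal lineage, by -0.13. The part of guard cells in the higher loci was not tested. In whole leaves, more cells of a type and more RNA per cell cannot be told apart. The mean of 5 vascular markers was 8.96 to 9.26 and 8.79 to 9.25, and the touch list's mean was 10.2 to 10.6 and 9.12 to 11.02.

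Dry and wet soil were compared for the split itself. No locus passed in the test of the difference between the dry and the wet split, whose smallest adjusted p was 0.9999, and 197 loci (1.60%) had an unadjusted p under 0.05. The 5 with the smallest p were AT1G14230 and AT1G14250, with the same estimate of 1.25, AT4G19050, AT3G44280 and IPMI2. The test rests on 2 low arrays per soil. CSD1 differed by -1.24 on the log2 scale in dry soil and by -1.44 in wet soil, and CCS differed by -1.39 and -0.87. HMA2 differed by 1.79 in dry and 0.999 in wet soil, and NAS4 by 0.45 and 1.22.

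Kas-1 arrays offered values that the split had not used. No Kas-1 array fell below the threshold, and the lowest were dry 2 at 11.92 and dry 1 at 12.37 around a median of 12.65. A slope on the CSD2 level, with soil as a block, called 3083 of the 12307 loci (25.1%), 1755 positive (14.3%) and 1328 negative (10.8%). The calls depended on dry 2: without that array no locus was called by limma, although 2367 had an unadjusted p under 0.05, where 615.4 would be expected with no slope at any locus. Some slopes were steeper without it, at -7.18 for ZIP4 (limma adjusted p = 0.126) and -4.56 for ZIP5 (limma adjusted p = 0.0762). Without both dry 1 and dry 2 no locus was called and 574 had an unadjusted p under 0.05, and the slopes were -3.16 for ZIP4 and -2.78 for ZIP5 (limma adjusted p = 0.987 for both). The slopes are given as a description. Dry 1 and dry 2 also scored highest in Kas-1 on the main axis of variation within groups, at 21.166 and 39.75. Wet 8 came next at 11.959. The touch list's mean was highest in dry 1 and dry 2 too, at 10.599 and 10.502. Whether the slopes follow CSD2 or that axis was not tested. With all Kas-1 arrays kept, 7 of 23 tested sulfate genes and 5 of 12 glucosinolate genes were called negative and none positive. Of all tested loci 10.8% were called negative and 14.3% positive. The 5 steepest positive slopes among the called loci belonged to GER3, AT2G33850, AT1G09750, Cpn60beta2 and PAR1, and the 5 steepest negative ones to NAC090, HSP70, GPT2, AT1G65690 and ZIP4.

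ZIP4 read 10.72 in dry 1 and 10.22 in dry 2, against 6.98 to 9.31 in the other Kas-1 arrays, and had a slope of -3.94. ZIP5 read 10.57 and 10.47 in the same arrays, and IRT3 11.31 and 10.89. NAS3 was also highest there, at 7.98 and 8.23. CSD1 read 12.25 and 12.63 against 12.31 to 12.95 in the other Kas-1 arrays, so that dry 1 was the lowest, and its slope was -0.03 (SE 0.25, limma adjusted p = 0.934). CCS read 10.81 and 10.46 against 10.67 to 11.02, so that dry 2 was the lowest, with a slope of 0.40 (limma adjusted p = 0.0935). In both Kas-1 arrays both genes stayed above all 4 low Tsu-1 arrays.

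Type-A response regulators had slopes of the opposite sense to the Tsu-1 split. ARR9 read 5.91 in dry 1 and 5.56 in dry 2, below the remaining Kas-1 arrays. All 6 tested type-A regulators had positive slopes (52.5% of all tested loci had one), with a median of 1.29. Of these slopes 4 were called, where 14.3% of all tested loci were called positive. Those of ARR9 and ARR5 were not called (limma adjusted p = 0.0550 and 0.397). ARR5 in dry 2 read 7.23, within the range of the arrays with more CSD2. Of the 15 loci with the smallest p among those higher in the low Tsu-1 arrays, 10 had a negative slope in Kas-1, the matching sense, where 47.5% of all tested loci had one. Of the 15 such loci among those lower, 5 had a positive slope, the matching sense, against 52.5%. Among the higher ones 1 was called in the matching sense and 1 in the other, and among the lower ones 0 and 1, and none of these was called without dry 2. The 15 higher loci include HMA2 and NAS3, and NAS3 was the 1 called in the matching sense.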

How the data were processed

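Biotin-labelled cRNA from rosette leaves was hybridised to 24 one-colour arrays. The authors deposited 1 table for 20514 loci, whose values (3.12 to 14.2) fit a log2 scale. Per the submitters' processing notes, MAS5 was used, with no version or role, so background correction and normalization are not given in the sources used here. Locus names come from the RefSeq gene table for TAIR10.1 (20290 matched, 224 not). No coordinates or sequences are given.

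The deposited values were used unchanged. Loci whose mean over all arrays was above the 40th percentile (6.20) were tested, 12307 in all without CSD2, in R 4.3.3 with limma 3.58.1 (soil and split as terms, intensity trend, adjusted p under 0.05). The split by soil interaction and, in Kas-1, a slope on CSD2 were fitted likewise. The number of arrays limits the precision. The procedure was checked on simulated data with noise drawn separately for each locus and array. That check does not cover arrays that share plants or RNA, or loci that vary together.

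The split, the members and 20 lists (270 genes, 237 in the table, 174 tested) were chosen with earlier results of these data known, and 3 cytokinin lists (26 genes) after seeing the present values. The text names the 5 loci with the smallest p in each direction, the 5 smallest for the interaction, the 5 steepest called Kas-1 slopes each way, and list members. Other settings were other normalizations, filters and models, single arrays left out, and other sets of arrays.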

Additional observations from a re-analysis of the deposited data

Results flagged for a closer look

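Single arrays stood far from the rest of their group in 11 of the 102 groups checked at the named loci, where chance alone flags about 1 in 20 groups. These were groups of 4 or 8 Tsu-1 arrays, and for CSD2 also the 6 dry and the 6 wet Kas-1 arrays. Within the low arrays, dry 6 stood apart in FSD1 at 10.29, in SPL7 at 5.62 and in AT1G04770 at 8.92. Wet 11 stood apart in CYP79B2 at 7.35 and in KAT1 at 6.98, and wet 12 in ATBFRUCT1 at 9.35. Among the other Tsu-1 arrays, wet 8 was high in ATBFRUCT1 at 8.53, in ARR9 at 6.98 and in ARR6 at 5.89. Dry 5 was high in CYP79B3 at 8.27 and dry 4 in AT1G75800 at 10.44.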

How the results depend on the processing

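The number of loci called in the Tsu-1 split, 3 with HMA2 among them, varied with the setting. HMA2 and NAS3 were kept among the tested loci in all these counts. It was 2 after quantile normalization and 3 after median centring, 1 with no filter, 23 with array weights, 15 in a fit of all 24 arrays, 6 as a slope on CSD2 and 16 with the touch score as a covariate. It was 0 in dry arrays alone (782 at an unadjusted p under 0.05), in wet arrays alone (290) and with the closest pairs averaged (1017). The averaged pairs were dry 1 with dry 5 and wet 8 with wet 10, so no low arrays were averaged. Settings chosen after seeing the data gave 6 without wet 7 and 9, 21 without wet 8 and 10, and 4 with wet 11 among the other arrays. Without single arrays it ran from 0 to 6. The cause was not tested. CSD1 stayed negative throughout and passed in 10 of 16 other settings, CYP79B3 in 11 and CCS in 6. With single arrays left out, FSD1 ran from -1.577 without dry 6 to 0.1214 without dry 3. In the 16 other settings it ran from -1.711 to -0.1551. The interaction called 0 loci in every setting run. The Kas-1 count, 3083, was 8869 with array weights, 1301 with the touch score and 0 without the 2 arrays farthest from the median, and ran from 0 to 3498 without single arrays. The Kas-1 slope of CSD1 turned to 0.3229 with no soil term, 0.1305 without those 2 arrays, and 0.5975, 0.05631 and 0.009756 without dry 2, dry 4 and dry 5; it was -0.2626 without dry 6. A split of Kas-1 at the Tsu-1 threshold was not run, as no array lies below it. No paired analysis was possible because the low and the other arrays share no replicate number. Dim loci such as NAS1 and NAS2 are limited by signal over background.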
